A study of Homo sapiens with 4 samples.

Results

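The SMC proteins (structural maintenance of chromosomes) and the non-SMC subunits of condensin were followed as 10 genes, SMC1A, SMC2, SMC3, SMC4, SMC5, SMC6, NCAPD2, NCAPD3, NCAPG and NCAPH, out of 18417 genes measured. They were taken by gene symbol from probe sets that the platform annotation gives to exactly 1 gene. Each of the 10 had 1 such probe set. The induced group was H1299, a human lung carcinoma cell line known to lack p53, with a stable tet-on construct for wild-type mouse p53, after 24 hours in 0.5 µg/mL doxycycline. The uninduced group was the construct line before doxycycline. No uninduced group is labelled as kept for the same 24 hours, so time in culture and induction cannot be told apart. Both groups grew in medium with tetracycline-free serum, and no sample of cells with doxycycline but without the construct was analysed here. Each group had 2 arrays that the labels call technical replicates, so p-values measure the spread between arrays only, and the 4 arrays limit the precision. Nothing in the labels says whether the line was 1 clone.

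SMC proteins are long ATPases that pair up and, closed by a kleisin subunit, form rings that extrude or hold loops of DNA. SMC2 and SMC4 form condensin, which compacts chromosomes for mitosis: condensin I adds NCAPD2, NCAPG and NCAPH, and condensin II adds NCAPD3, NCAPG2 and NCAPH2. SMC1A and SMC3 form cohesin, which holds sister chromatids together and shapes chromatin loops in interphase. SMC5 and SMC6 form a complex that acts in DNA repair and at stalled replication forks. p53 is a transcription factor that halts the cell cycle, largely through CDKN1A.

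The induction was visible in known p53 targets. CDKN1A, the p21 inhibitor, read 12.63 and 12.50 log2 units on the induced arrays, against 9.16 and 9.11 on the uninduced arrays. MDM2, the ubiquitin ligase that degrades p53, read 12.70 and 12.76 on the induced arrays, against 9.84 and 9.85 on the uninduced arrays. All values are RMA expression levels on the log2 scale, whose medians lay at 7.29 and 7.26 on the induced and 7.33 and 7.32 on the uninduced arrays. Of 4 genes checked for expression in H1299 cells, VIM, KRT18 and ACTB lay between 10.98 and 12.90 on induced arrays. On uninduced arrays these 3 lay between 11.10 and 13.19, and VIM (log2 fold change -0.40) and ACTB (-0.275) were called lower. KRT8, read 10.45 and 10.81 on induced arrays, against 9.41 and 9.56 on uninduced arrays, and was called higher. The mean levels of 11 blood, fibroblast and endothelial markers spanned 4.065 to 8.97 on induced arrays, with a median of 6.375, and 3.98 to 7.955 on uninduced arrays, with a median of 6.41. Of these markers, 2 passed the test, ITGAM and CD3E, both higher on induced arrays. Their part in the results below was not tested.

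All 10 SMC and condensin genes fell after induction, and 9 of them at least 2-fold. A call here is a Benjamini-Hochberg adjusted p under 0.05 over all 18417 genes in limma's moderated test. By that call 24.6% of all genes were lower, 6.77% at least 2-fold and 1.32% at least 4-fold. The condensin genes SMC2, NCAPG, NCAPH and NCAPD3 fell at least 4-fold. The median log2 fold change of the 10 genes was -1.80, against 0 over all genes. In each of the 10 both induced arrays read below both uninduced arrays, as was the case for 34.3% of all genes. In bulk RNA, fewer cells in a phase of the cycle and less RNA per cell cannot be told apart. The plot of levels by array shows these values.

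**Figure D1:**
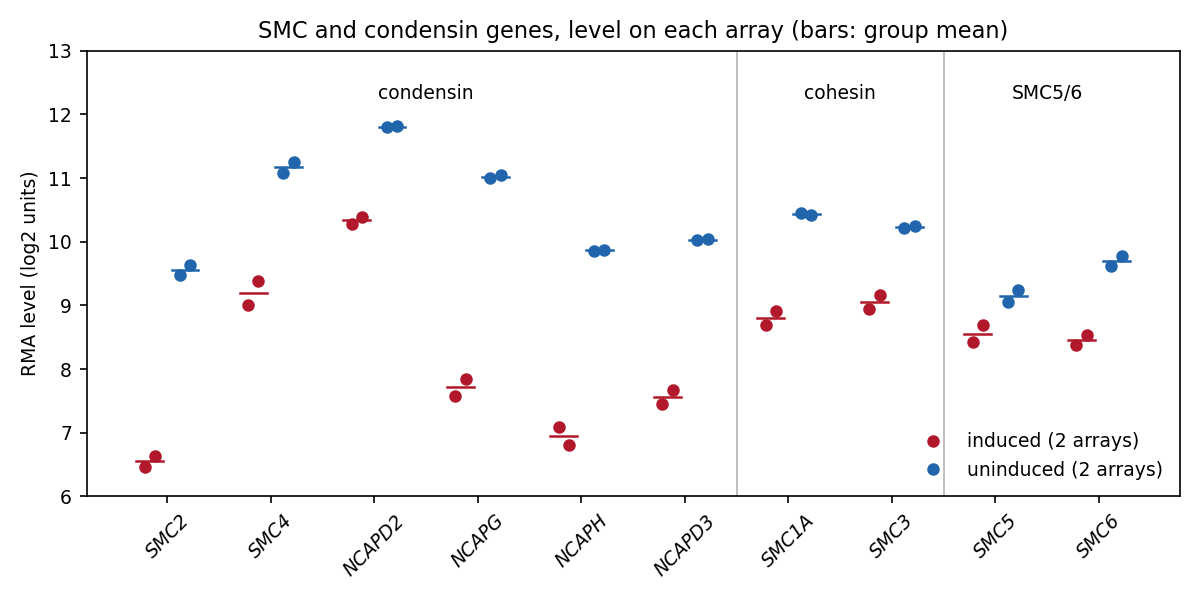
RMA level in log2 units (vertical axis) of the 10 genes (horizontal axis) on each array, induced left of uninduced within each gene; points are arrays and bars are means of 2 arrays. The gap between the groups is widest for NCAPG (log2 fold change -3.31) and narrowest for SMC5 (-0.60).

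The SMC pair of condensin fell unequally. SMC2 read 6.47 and 6.63 on induced arrays, against 9.48 and 9.63 on uninduced arrays, an 8.03-fold fall (log2 fold change -3.005, SE 0.099, adjusted p = 8.9e-07). SMC4 read 9.0 and 9.39 on induced arrays, against 11.08 and 11.26 on uninduced arrays, a 3.93-fold fall (-1.975, SE 0.14, adjusted p = 2.1e-05). The 95% intervals of these log2 fold changes, -3.24 to -2.77 for SMC2 and -2.30 to -1.65 for SMC4, did not overlap, although the proteins work as a dimer. The difference between these genes was not tested. The induced SMC2 level lay close to the median of the blood, fibroblast and endothelial markers on the same arrays. RMA compresses the fold changes of dim probe sets. How far this touches SMC2, or other genes whose induced levels lay within the marker range, was not tested.

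Among the condensin I subunits, NCAPG, a HEAT-repeat subunit, changed most. NCAPG read 7.58 and 7.85 on induced arrays, against 11 and 11.05 on uninduced arrays, a 9.92-fold fall (log2 fold change -3.31, SE 0.11, adjusted p = 8.9e-07). It ranked 32 of 18417 genes when counted from the largest fall. NCAPH, the kleisin that closes the condensin I ring, read 7.09 and 6.81 on induced arrays, against 9.86 and 9.87 on uninduced arrays, a 7.54-fold fall. NCAPD2, the other HEAT-repeat subunit, read 10.28 and 10.39 on induced arrays, against 11.80 and 11.82 on uninduced arrays, a 2.78-fold fall. The 95% interval of NCAPD2, -1.68 to -1.27, lay wholly above those of NCAPG and NCAPH. NCAPD2 had the smallest fall of the condensin I subunits, and the differences between these genes were not tested.

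In condensin II, NCAPD3, its HEAT-repeat counterpart of NCAPD2, read 7.46 and 7.67 on induced arrays, against 10.03 and 10.04 on uninduced arrays, a 5.54-fold fall (log2 fold change -2.47, SE 0.098, adjusted p = 1.7e-06). NCAPG2, the condensin II counterpart of NCAPG and not among the 10, read 7.16 and 7.28 on induced arrays, against 10.02 and 10.09 on uninduced arrays, a 7.14-fold fall. NCAPH2, the kleisin of condensin II, read 7.51 and 7.47 on induced arrays, against 7.99 and 8.06 on uninduced arrays, a 1.45-fold fall. The 95% intervals of the kleisins of both condensin complexes did not overlap, with bounds of -3.17 to -2.66 for NCAPH and -0.73 to -0.34 for NCAPH2. The difference between them was not tested.

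The promoters of condensin genes are shown because these genes fell together, and because a short element called CHR (cell cycle genes homology region), bound by the MuvB complex, is known from promoters of mitotic genes, often near CCAAT boxes bound by NF-Y. The windows run from 250 bases before to 50 bases after a RefSeq start (GRCh38.p14), 5′ to 3′ on the gene's strand. Capitals mark TTTGAA, a CHR core, and CCAAT, each on either strand, so that TTCAAA and ATTGG are the same motifs reversed. SMC2 is chr9:104094059-104094358 (+, the first of 2 starts), NCAPD2 is chr12:6493852-6494151 (+), NCAPG is chr4:17810729-17811028 (+) and NCAPD3 is chr11:134223918-134224217 (-, the second of 2 starts). SMC5, chr9:70258728-70259027 (+), the gene with the smallest fall, is shown as a window with neither motif. Among the 10 genes, NCAPH, without TTTGAA, fell 7.54-fold, and SMC1A, with neither motif, fell 3.08-fold. NCAPD2, with both motifs, fell 2.78-fold. The other starts of SMC2 and NCAPD3, not shown, held neither motif. Whether motif and fall go together was not tested.
SMC2: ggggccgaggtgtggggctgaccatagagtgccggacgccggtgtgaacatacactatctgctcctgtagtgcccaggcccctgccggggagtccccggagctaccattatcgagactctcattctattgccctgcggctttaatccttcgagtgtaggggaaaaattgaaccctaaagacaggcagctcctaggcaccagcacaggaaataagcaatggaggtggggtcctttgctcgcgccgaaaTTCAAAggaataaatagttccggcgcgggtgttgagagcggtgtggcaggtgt
NCAPD2: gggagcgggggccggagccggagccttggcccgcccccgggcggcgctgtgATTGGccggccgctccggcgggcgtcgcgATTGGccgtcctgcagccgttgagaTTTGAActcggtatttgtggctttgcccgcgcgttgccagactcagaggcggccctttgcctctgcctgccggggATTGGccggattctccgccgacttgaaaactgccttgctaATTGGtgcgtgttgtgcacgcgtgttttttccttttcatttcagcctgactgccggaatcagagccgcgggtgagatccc
NCAPG: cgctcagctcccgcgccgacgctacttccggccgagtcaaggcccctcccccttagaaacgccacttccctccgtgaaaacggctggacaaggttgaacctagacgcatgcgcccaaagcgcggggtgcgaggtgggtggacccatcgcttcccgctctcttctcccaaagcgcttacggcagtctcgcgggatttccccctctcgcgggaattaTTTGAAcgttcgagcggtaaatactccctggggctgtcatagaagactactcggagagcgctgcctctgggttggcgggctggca
NCAPD3: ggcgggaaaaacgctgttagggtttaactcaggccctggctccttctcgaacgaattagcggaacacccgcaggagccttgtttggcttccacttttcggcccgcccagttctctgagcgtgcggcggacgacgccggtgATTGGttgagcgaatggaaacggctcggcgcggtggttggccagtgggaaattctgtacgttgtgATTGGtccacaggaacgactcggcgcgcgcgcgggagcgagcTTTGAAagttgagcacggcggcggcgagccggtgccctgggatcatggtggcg
SMC5: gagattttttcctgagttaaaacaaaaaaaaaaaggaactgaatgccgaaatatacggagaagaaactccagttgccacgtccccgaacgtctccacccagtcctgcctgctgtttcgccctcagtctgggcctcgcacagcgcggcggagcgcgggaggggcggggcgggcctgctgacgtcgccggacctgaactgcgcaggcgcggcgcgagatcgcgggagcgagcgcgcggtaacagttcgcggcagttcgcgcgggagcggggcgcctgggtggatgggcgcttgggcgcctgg

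TTTGAA lay in a window of 5 of the 6 condensin genes (SMC2, SMC4, NCAPD2, NCAPG and NCAPD3; 5 of 9 windows) and of 1 of the 4 cohesin and SMC5/6 genes (SMC3; 1 of 5 windows). Over all RefSeq windows of this length, 15.2% held it, and 15.7% of measured genes had it in a window. Its first base was 3 bases before the start in SMC2 and NCAPD3, at positions given as -3, and at -35 in NCAPG, -75 in SMC4, -145 in NCAPD2 and -151 in SMC3. CCAAT lay in windows of NCAPD2 (4 matches), NCAPD3 (2 matches) and NCAPH (1 match), and in none of the cohesin and SMC5/6 genes, against 34.6% of all windows and 42.2% of measured genes. The CCAAT count of 3 in 6 condensin genes is close to that share of genes. The E2F letters TTCCCGC lay in windows of NCAPG, NCAPD3 and SMC1A, against 6.55% of all windows and 10.9% of measured genes. The letters TTGGCGC (5.06% of measured genes) and the CHR variant TTCGAA (2.20% of measured genes) were found in no window of the 10 genes. Both strands were searched; TTGGCGC can overlap CCAAT read on the other strand. NCAPG2 held TTTGAA after its start, with the leftmost base at position 36. NCAPH2, with a log2 fold change of -0.535, had no window and was not searched. A match is a description of letters and not a binding site, and the motifs were chosen with the falls known.

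The SMC pair of cohesin fell less than most condensin genes. SMC1A read 8.70 and 8.92 on induced arrays, against 10.45 and 10.42 on uninduced arrays, a 3.08-fold fall (log2 fold change -1.625, SE 0.0996, adjusted p = 1.1e-05). SMC3 read 8.94 and 9.16 on induced arrays, against 10.21 and 10.24 on uninduced arrays, a 2.26-fold fall (-1.175, SE 0.0996, adjusted p = 5.2e-05). The intervals of these dimer partners, -1.86 to -1.39 for SMC1A and -1.41 to -0.94 for SMC3, overlapped slightly. Of 7 other cohesin subunit genes, 3 fell and 4 were not called, beside 24.6% of all genes called lower. RAD21, the mitotic kleisin, fell 2.42-fold, to 9.42 and 9.65 on induced arrays, against 10.76 and 10.86 on uninduced arrays.

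The SA subunits bind the kleisin and are used in different cohesin rings. STAG1 read 7.98 and 8.10 on induced arrays, against 8.91 and 9.09 on uninduced arrays, a 1.95-fold fall. STAG2, the more studied of the mitotic SA genes because it is mutated in tumours, read 9.44 and 9.55 on induced arrays, against 9.56 and 9.78 on uninduced arrays (log2 fold change -0.175, SE 0.10, adjusted p = 0.227). STAG3, a meiotic SA gene with several near-identical relatives in the genome, fell 2.46-fold; because relatives can share its probes, that value is uncertain. The meiotic genes SMC1B, REC8 and RAD21L1 were not called, with log2 fold changes of -0.36, -0.18 and -0.025. RAD21L1 read 4.48 and 4.19 on induced arrays, against 4.45 and 4.27 on uninduced arrays. The mean levels of SMC1B and RAD21L1 lay under the marker median in both groups, and what that does to their changes was not tested. SMC1B, whose induced arrays read 5.99 and 5.46, was called lower without induced array 1 (-0.625, adjusted p = 0.0163) and had -0.095 without induced array 2.

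SMC5 and SMC6 fell by different amounts. SMC6 read 8.38 and 8.53 on induced arrays, against 9.62 and 9.77 on uninduced arrays, a 2.36-fold fall (log2 fold change -1.24, SE 0.098, adjusted p = 3.7e-05). SMC5 read 8.42 and 8.69 on induced arrays, against 9.06 and 9.25 on uninduced arrays, a 1.52-fold fall (-0.60, SE 0.12, adjusted p = 0.0042). The SMC5 call was lost without induced array 1 (adjusted p = 0.0828), without uninduced array 1 (0.0680) and without uninduced array 2 (0.126), and held without induced array 2 (0.0379). Both SMC5 and SMC6 read higher on array 2 than on array 1 of each group. So did SMC2, SMC4, NCAPD2, NCAPG, NCAPD3 and SMC3.

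The non-SMC subunits of the SMC5/6 complex divided by gene. Of 7 measured, 4 fell and 3 were not called, beside 24.6% of all genes called lower. NSMCE4A, the kleisin of the complex, fell 2.32-fold, to 7.89 and 8.12 on induced arrays, against 9.15 and 9.29 on uninduced arrays. Its relative EID3 fell 1.47-fold. SLF1 and SLF2, which bring the complex to DNA lesions, fell 3.84-fold and 2.11-fold, and SLF1 read 5.14 and 5.39 on induced arrays, against 7.19 and 7.22 on uninduced arrays. The induced SLF1 level lay under the marker median and what that does to its fold was not tested. NSMCE1, a RING-finger subunit, NSMCE2, a SUMO ligase, and NSMCE3, which binds NSMCE1, had log2 fold changes of 0.235 (SE 0.10), 0.035 (SE 0.094) and 0.21 (SE 0.097) and were not called as deposited (adjusted p = 0.109, 0.815 and 0.125). The calls of 2 of these depended on the setting: NSMCE1 was called higher with each array centred on its median (log2 fold change 0.285, adjusted p = 0.0457) and with an intensity trend in limma's prior (adjusted p = 0.0107), and NSMCE3 after quantile normalization again (0.29, adjusted p = 0.0447).

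**Figure D2:**
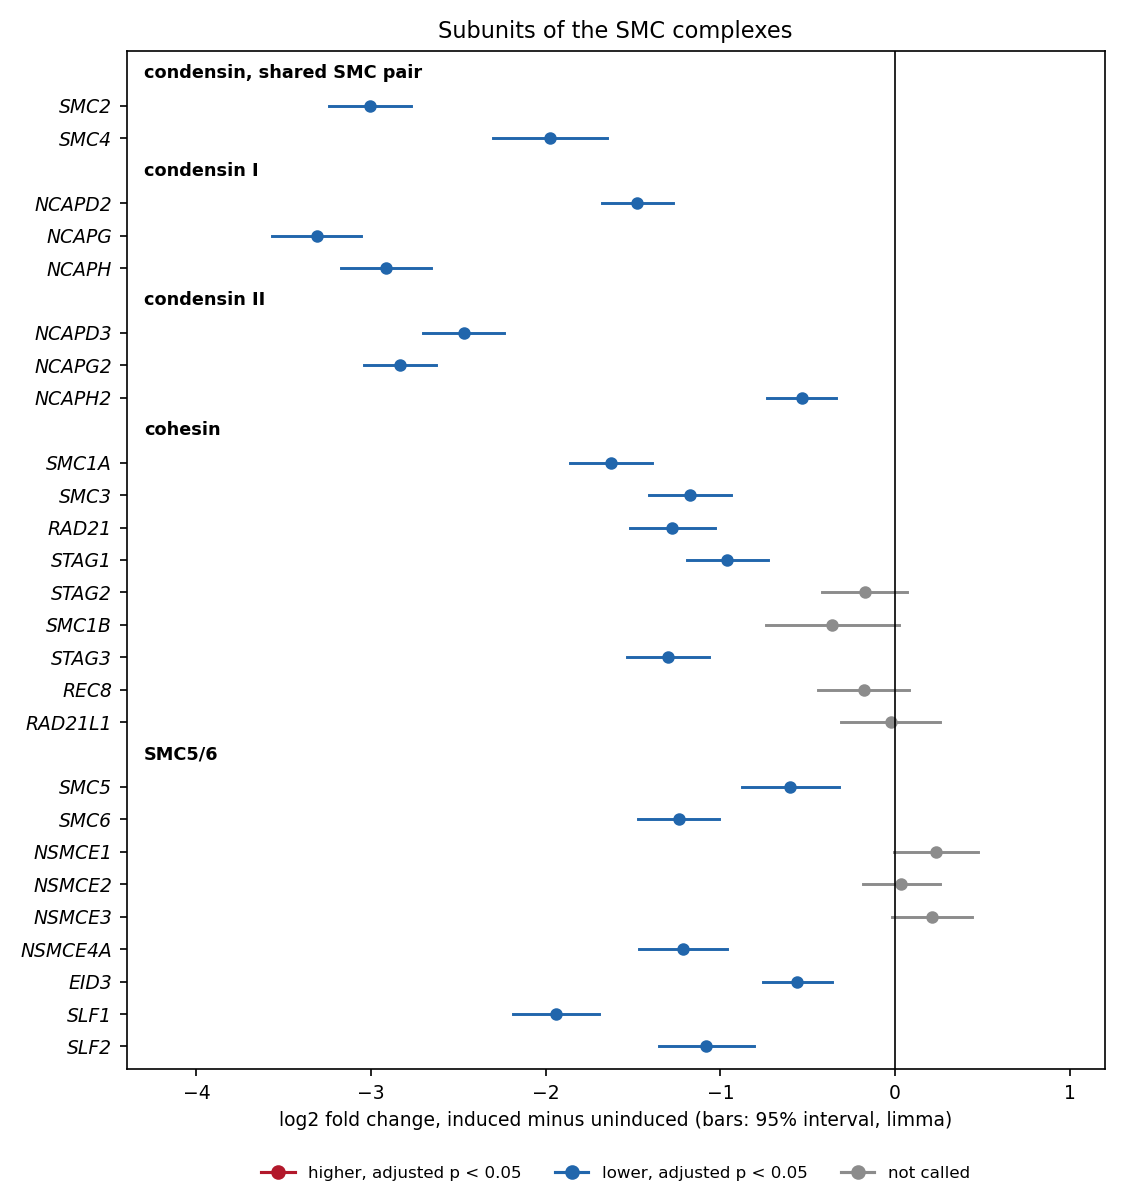
Log2 fold change, induced minus uninduced (horizontal axis), of the subunit genes of condensin, cohesin and SMC5/6; points are limma's estimates, bars their 95% intervals, blue lower and grey not called. Condensin genes other than NCAPH2 lie at or below -1.475, and the subunits STAG2 and NSMCE2 lie near 0.

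Among the 10 genes, those of condensin had larger falls on average than those of cohesin and SMC5/6. The mean log2 fold change was -2.525 for the 6 condensin genes and -1.16 for the 4 cohesin and SMC5/6 genes, a difference of -1.365 with a pooled SD between arrays of 0.037. The mean level of the condensin genes was 7.98 and 8.12 on induced arrays, against 10.54 and 10.61 on uninduced arrays. That of the cohesin and SMC5/6 genes was 8.61 and 8.825 on induced arrays, against 9.835 and 9.92 on uninduced arrays. In 23 of 24 pairs of 1 condensin and 1 other gene, the condensin gene fell more, and the exception was NCAPD2 (-1.475) against SMC1A (-1.625). The contrast leaves out the condensin II subunits NCAPG2 (-2.835) and NCAPH2 (-0.535), and NCAPH2 fell less than SMC5 (-0.60). It also leaves out the other subunits of cohesin and SMC5/6, whose log2 fold changes ran from -1.94 (SLF1) to 0.235 (NSMCE1). No p-value is given for this contrast because the genes were chosen with results known. The difference was between -1.40 and -1.33 whichever array was left out.

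**Figure D3:**
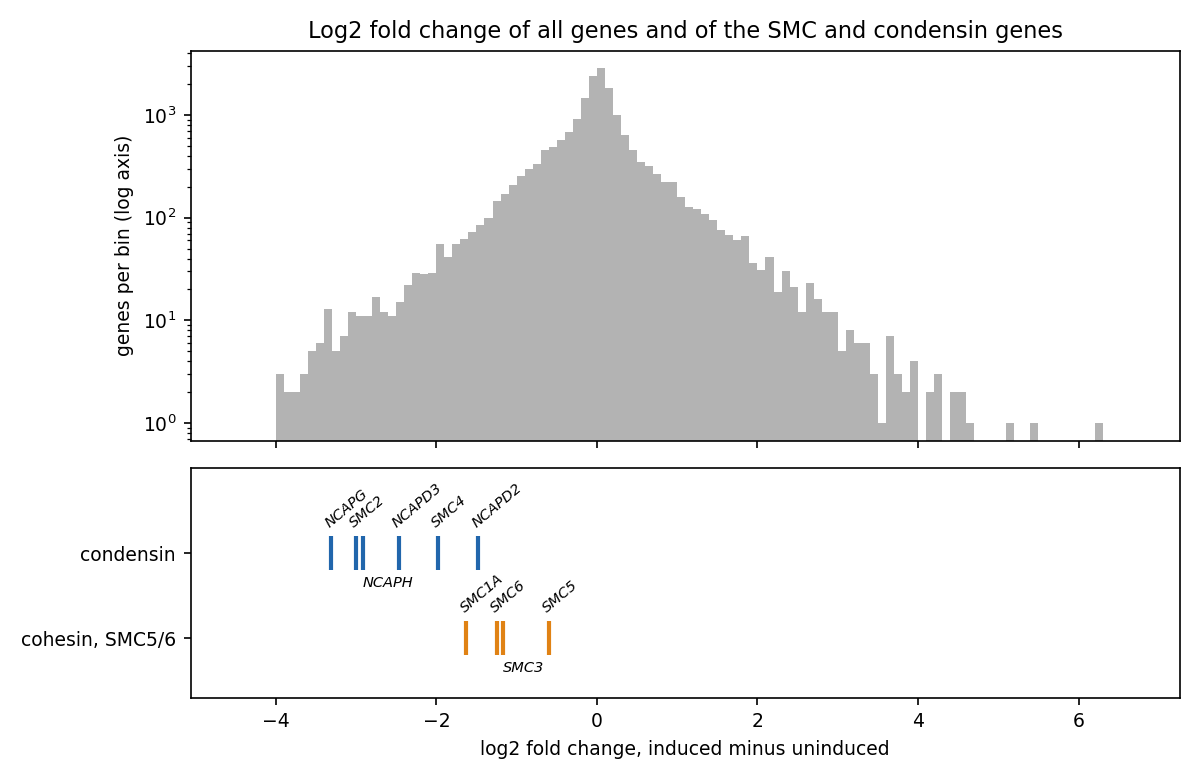
Upper panel, number of genes (log axis) in bins of log2 fold change, induced minus uninduced, for 18417 genes; lower panel, the 6 condensin genes and the 4 cohesin and SMC5/6 genes on the same axis as ticks. The condensin ticks span -3.31 to -1.475 and the others -1.625 to -0.60.

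Genes that load, lock, protect or release cohesin moved in several ways. Of 14 cohesin regulators, 9 fell, 1 rose and 4 were not called, with a median log2 fold change of -0.83. Over all genes 24.6% were called lower and 20.6% higher. The shugoshins, which shield centromeric cohesin in mitosis, fell 11.6-fold (SGO1) and 6.80-fold (SGO2). SGO1 read 5.67 and 5.94 on induced arrays, against 9.24 and 9.44 on uninduced arrays. The acetyltransferase genes parted: ESCO2, which locks cohesin during S phase, fell 9.65-fold, to 5.84 and 5.93 on induced arrays against 9.07 and 9.24 on uninduced arrays, whereas ESCO1, its interphase relative, was not called (-0.17 on the log2 scale, SE 0.12, adjusted p = 0.335). The induced mean levels of SGO1, SGO2 and ESCO2 lay under the marker median, and what that does to their folds was not tested.

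Sororin (CDCA5), which holds cohesin closed, fell 6.54-fold, and separase (ESPL1), the protease that cuts the kleisin at anaphase, fell 6.21-fold. The induced mean level of CDCA5 was 6.585, close to the marker median, and what that does to its fold was not tested. The cohesin loader gene NIPBL read 10.25 and 10.39 on induced arrays, against 9.78 and 9.94 on uninduced arrays, and rose 1.38-fold (log2 fold change 0.46, SE 0.098, adjusted p = 0.0061). Its partner MAU2 was not called (0.155 on the log2 scale, SE 0.084, adjusted p = 0.187). WAPL, which opens the ring, and PTTG1, the separase inhibitor securin, had log2 fold changes of -0.125 and -0.12 and were not called. PDS5A and PDS5B, which hold WAPL or sororin on the ring, fell 1.90-fold and 3.10-fold. CTCF, the DNA-binding protein at which cohesin loops stop, fell 1.67-fold, and HDAC8, the cohesin deacetylase gene, 1.24-fold.

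Most partners of condensin in mitotic chromosomes fell. Of 12 listed, 11 were measured (MCPH1 was not analysed here), of which 10 fell and 1 rose, with a median log2 fold change of -2.565. Over all genes 24.6% were called lower and 20.6% higher. MKI67, which coats mitotic chromosomes, fell 11.4-fold, CDK1, the kinase that activates condensin, 10.9-fold, and KIF4A, a chromosome-bound kinesin that works with condensin I, 9.51-fold. Their induced mean levels, 7.005, 6.825 and 6.725, lay within the marker range, and what that does to their folds was not tested. Topoisomerase genes moved in opposite directions. TOP2A, the form of proliferating cells, read 8.04 and 8.36 on induced arrays, against 10.68 and 10.85 on uninduced arrays, a 5.92-fold fall. TOP2B, the form that resting cells also express, read 9.72 and 9.95 on induced arrays, against 9.20 and 9.41 on uninduced arrays, a 1.44-fold rise (log2 fold change 0.53, SE 0.12, adjusted p = 0.0067).

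BANF1, a chromatin-binding protein of the nuclear envelope, fell 1.92-fold on its brighter probe set, while its other probe set had a log2 fold change of -0.17 (adjusted p = 0.282 over all rows of the table). AKAP8, an anchoring protein that recruits condensin, fell 1.28-fold. Members of the wider SMC family outside these complexes also differed: RAD50, the SMC-like ATPase of the MRN repair complex, read 10.35 and 10.52 on induced arrays, against 9.83 and 9.91 on uninduced arrays, a 1.48-fold rise. SMCHD1, a non-canonical SMC protein of the inactive X chromosome, fell 1.54-fold. The rises of NIPBL and TOP2B were no longer called without any 1 of the 4 arrays, and that of RAD50 without either uninduced array (adjusted p = 0.0712 and 0.0548). The falls of HDAC8 and AKAP8 lost their call without induced array 1 or either uninduced array.

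**Figure D4:**
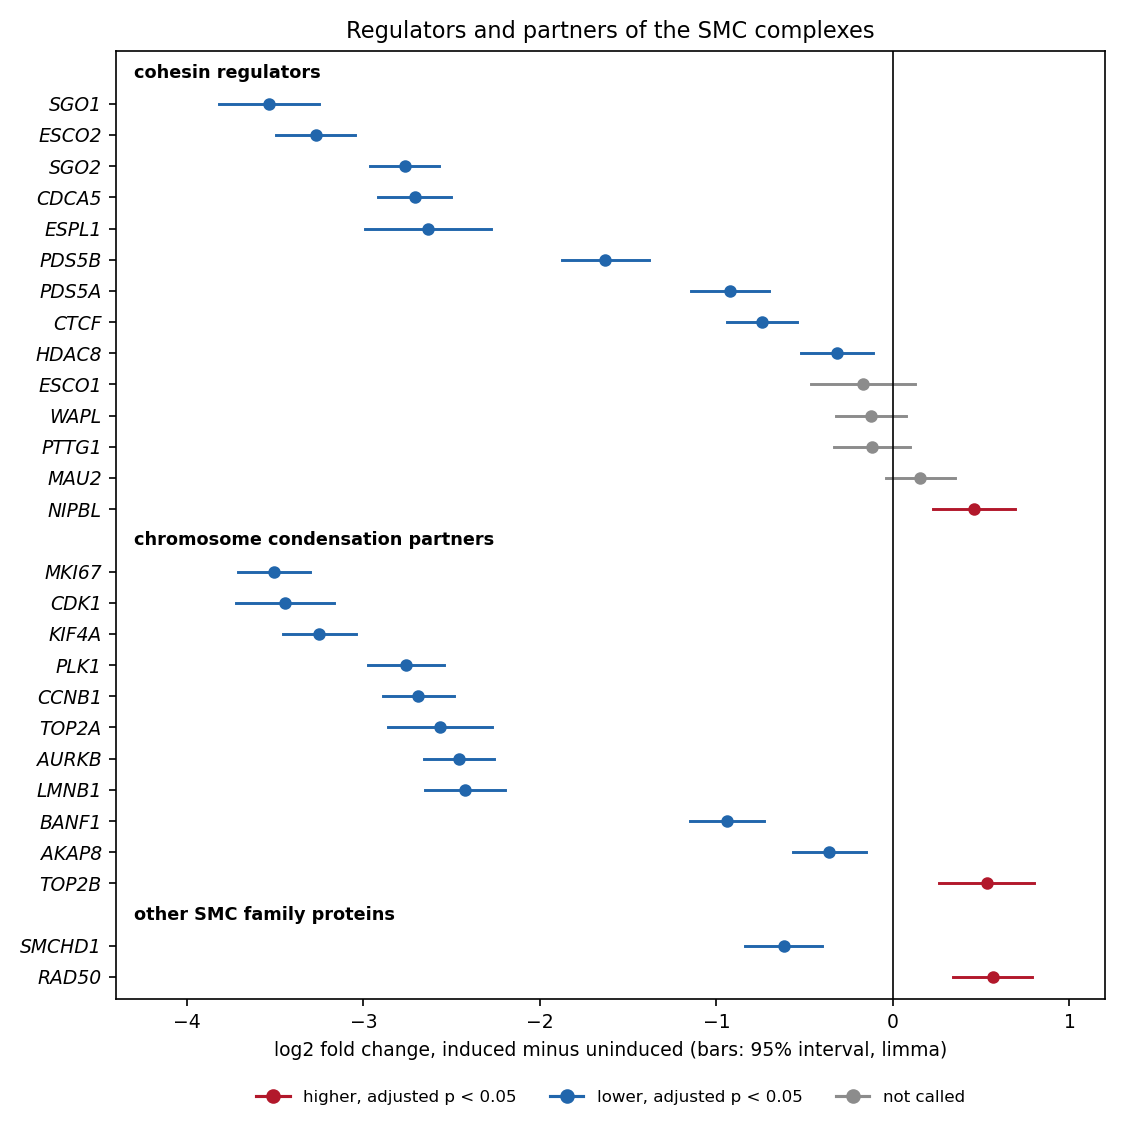
Log2 fold change, induced minus uninduced (horizontal axis), of cohesin regulators, chromosome condensation partners and other SMC family genes; points are limma's estimates, bars their 95% intervals, red higher, blue lower, grey not called. NIPBL (0.46), TOP2B (0.53) and RAD50 (0.565) lie to the right of 0, while SGO1 (-3.535) and MKI67 (-3.505) lie farthest left.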

How the data were processed

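RNA of 4 samples was hybridised to Affymetrix arrays. The deposited values are log2 expression levels, 1 per probe set and array, with 2 decimals, made by the authors with Affymetrix Expression Console and RMA, per the submitters' processing notes. Neither a version nor a genome build is given in the sources used here. RMA equalises the arrays' distributions, which hides a change common to all genes. Of 33297 rows, 19460 have 1 gene symbol in the platform annotation, 1754 several and 12083 none. The probe set with the highest mean stood for a gene, leaving 18417 genes.

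Titles gave the groups. Induced arrays were compared with uninduced ones by a two-sided moderated test in limma 3.58.1 under R 4.3.3 (lmFit and eBayes without covariates; 7.20 degrees of freedom, of which 2 residual). Adjusted p-values are Benjamini-Hochberg's across the 18417 genes. The fit was tested on simulated data. The members, lists and motifs were chosen with earlier results of these data known. All members and all subunit genes were named, with the 3 largest called falls, 3 largest called rises and 2 smallest changes of each other list; CDCA5, ESPL1, ESCO1, MAU2, PDS5A, PDS5B, CTCF, HDAC8, TOP2A and BANF1 were named after their values were seen. Promoter windows are RefSeq's (GRCh38.p14), found for all 10 members by symbol; the array's build was not given. Motifs were searched with Python 3.11.15. Alternatives are in the closing section.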

Additional observations from a re-analysis of the deposited data

Results flagged for a closer look

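Some probe sets that name a gene of these complexes were not used above, because they name several genes or are the dimmer of 2 for a gene, and 3 of them differed between the groups in limma's fit over all rows. The probe set shared by STAG3 and its relatives STAG3L1, STAG3L2, STAG3L3 and STAG3L5P-PVRIG2P-PILRB read 10.21 and 10.11 on induced arrays, against 11.64 and 11.59 on uninduced arrays, a log2 fold change of -1.455 (SE 0.086). The probe set shared by KIF4A and KIF4B read 6.19 and 6.36 on induced arrays, against 7.74 and 7.85 on uninduced arrays, a log2 fold change of -1.52 (SE 0.10). The dimmer SMCHD1 probe set had a log2 fold change of -0.50 (SE 0.11), beside -0.62 for the brighter. With 2 arrays a group, no search for an outlying array was possible.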

How the results depend on the processing

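All alternatives were written down with earlier results of these data known. Of 120 values of the 10 genes under 12 alternatives, 117 kept their direction and call and 0 changed direction; the other 3 were those of SMC5, whose log2 fold change lay between -0.735 and -0.465 with 1 array left out. With 1 array left out, a lone array is assumed to vary like the other group. The number of genes called lay between 4959 and 6904 and that of genes called lower between 2643 and 3785 with 1 array left out, against 8311 and 4522. The companion genes called higher numbered 0 to 1 with 1 array left out, against 3; fewer arrays leave less precision. Quantile normalization again gave 8514 called genes, 4237 of them lower. Centring each array on its median gave 8554, 4182 of them lower. In both settings fewer genes were called lower than higher, the reverse of the values as deposited. With limma's treat against a fold of 1.2, 5479 genes were called, 2977 of them lower, and 1 companion gene was higher, since treat asks for a larger change. With all rows of the table tested, 1871 of 33297 rows were at least 2-fold lower, against 1246 of 18417 genes. These counts have different totals, and the rows include several for some genes and rows without a gene symbol. With the replicate number as a block, 7820 genes were called and all 10 members stayed lower; deviations of same-numbered arrays correlated at r = 0.225 across genes, which with 2 pairs does not show pairing. Of 512 values of companion genes, 488 kept their call, 20 lost it, 4 gained it and 0 changed direction with a call on either side. Uncalled values near 0 changed sign for RAD21L1 (0.025 with arrays centred on their medians), and with 1 array left out for RAD21L1, NSMCE2 and ESCO1. Detection calls were not used here, so levels near the marker median have no known lower limit.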

Other observations

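Among the cell type markers checked, 2 changed more than 2-fold; they are named after their values were seen. ITGAM, an integrin chain of myeloid cells, read 8.97 and 8.97 on induced arrays, against 7.67 and 7.60 on uninduced arrays, a 2.52-fold rise, while the pan-leukocyte gene PTPRC read 4.20 and 4.02 on induced arrays, against 4.04 and 3.92 on uninduced arrays. KRT8, an epithelial keratin, read 10.45 and 10.81 on induced arrays, against 9.41 and 9.56 on uninduced arrays, a 2.21-fold rise, while its partner KRT18 was not called (-0.095 on the log2 scale, SE 0.089; limma's adjusted p = 0.454).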
